A study of Mus musculus with 6 samples.

Results

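Jmjd1c occupancy was read at the 24 genomic regions that the authors listed for the Jmjd1c antibody 10 h after induction of Oct4, out of 1542 regions listed for 3 antibodies. All of them were taken, with no further selection. The cells were mouse embryonic stem cells (C57BL/6) with a tet-ON Oct4 gene. They had been differentiated with retinoic acid and then given doxycycline, which switches the transgene on, or PBS. Chromatin immunoprecipitation with sequencing (ChIP-seq) gave 1 library for each group used here, namely Jmjd1c at 10 h (26736842 reads), Oct4 at 10 h (15543450 reads), Spt16 at 10 h (36669596 reads) and input chromatin at 10 h (14592994 reads). The input is sonicated chromatin sequenced without an antibody. All 4 libraries came from cells that carry the transgene and had received retinoic acid and doxycycline, and Jmjd1c chromatin from uninduced cells was not analysed here. The deposited tables hold regions and reads, so the cell type could not be checked by marker expression, nor the antibody by its target. With 1 library a group there is no test between groups, and every interval covers counting error only.

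Jmjd1c belongs to the KDM3 group of Jumonji proteins, whose relatives remove methyl groups from lysine 9 of histone H3, a mark of silent chromatin. Oct4, encoded by Pou5f1, is the POU-domain factor at the centre of the pluripotency network. Spt16 is the large subunit of FACT, a chaperone that takes histones off nucleosomes and puts them back. The series title names stepwise nucleosome demethylation and depletion as the process under study, and the Jmjd1c table addresses where the demethylase relative sat on the genome.

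Regions with Jmjd1c held few reads each. Over the 24, the best window (the 175 to 201 bp that the authors scored within each region) held 23 to 46 Jmjd1c reads with a median of 32.5, while the same window held 0 to 4 input reads. Scaled to the library total (reads per 1000000 library reads, RPM), this was 0.860 to 1.72 RPM of Jmjd1c with a median of 1.22 RPM, against 0 to 0.274 RPM of input. The input window was empty at 15 regions, held 1 read at 3, 2 reads at 4 and 4 reads at 2. Every region had reads on both DNA strands, with at least 10 on the weaker strand, and 44.4% to 63.9% of its reads on the plus strand. These reads chose the regions, so the enrichment is a description. Where the input was empty, Jmjd1c was at least 4.18-fold to at least 8.37-fold above the level that 3 input reads would give (0.206 RPM). At the 9 regions with input reads the ratio was 5.87 to 19.6, and the lowest counting bound was 2.13. The list ended at a Q score of 13.4, just inside the authors' minimum of 13 (a false discovery rate score, read here as 10 times the negative log10). Regions below that minimum were not analysed here. Rank numbers ran to 52 and 28 of them were absent, among them 1 to 5, so the first region listed, at Abca4, had rank 6. Any regions behind the absent numbers were not analysed here, and every range and highest value covers the 24 listed regions alone.

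**Figure D1:**
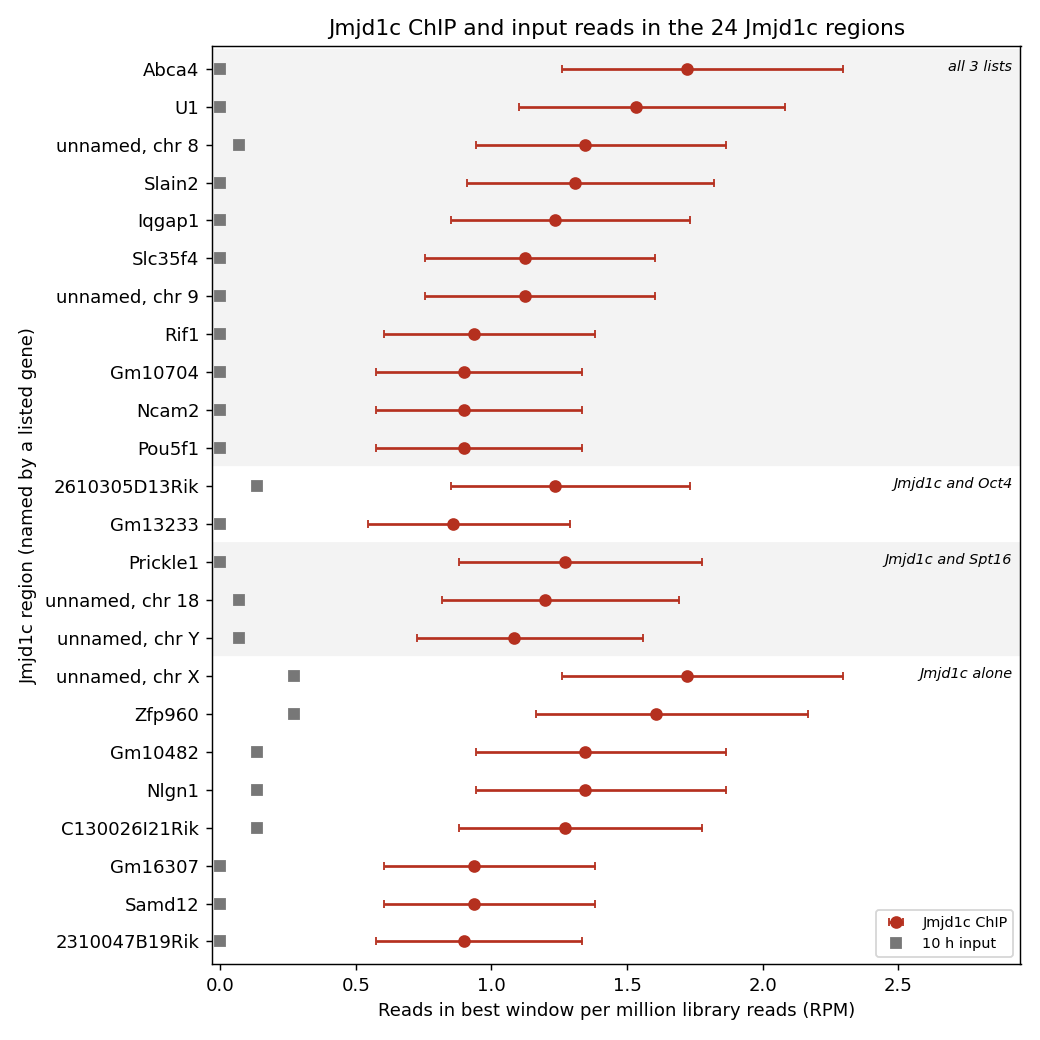
Reads in the best window of each Jmjd1c region, in RPM. Red circles are the Jmjd1c library with 95% exact Poisson intervals, grey squares the 10 h input, and shading groups the regions by the lists that hold them. Jmjd1c lay between 0.860 and 1.72 RPM, and the highest input values (0.274 RPM) stood at a pair of regions listed for Jmjd1c alone.

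By overlap of at least 1 bp, the 24 regions fell into 4 groups. There were 11 in all 3 lists, 2 shared with Oct4 but not Spt16, 3 shared with Spt16 but not Oct4, and 8 in the Jmjd1c list alone. The 13 regions shared with Oct4 were 54.2% of the Jmjd1c list (95% Clopper-Pearson interval 32.8 to 74.4) and 4.91% of the Oct4 list (2.64 to 8.24). For comparison, 13.4% of Spt16 regions overlapped an Oct4 region. The 14 regions shared with Spt16 were 58.3% of the Jmjd1c list (36.6 to 77.9) and 1.12% of the Spt16 list (0.612 to 1.87). For comparison, 63.4% of Oct4 regions overlapped a Spt16 region, which lies within the first of these intervals. Of the 24 highest-ranked Oct4 regions, 6 (25%) had a Jmjd1c region, and all 24 (100%) had a Spt16 region. Of the 24 highest-ranked Spt16 regions, 9 (37.5%) had a Jmjd1c region and 22 (91.7%) an Oct4 region. The lists also differ in length, with 24 Jmjd1c, 265 Oct4 and 1253 Spt16 regions. A long list can overlap a short one only in a small share, so shares of lists of unlike length are not directly comparable. The libraries differ in depth and share an input, so these shares describe the lists and were not tested.

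Among regions in all 3 lists, those at Pou5f1 and Rif1 lay beside genes of the pluripotency program. The Pou5f1 region (ENSMUSG00000024406) was on chromosome 17 at 35640868 to 35641086 (mm9), upstream of the gene, with its middle 2004 bp from the start. At this and the other shared regions, each antibody was counted in the best window of its own overlapping region. These windows held 24 Jmjd1c reads, 40 Oct4 reads and 170 Spt16 reads here, each with 0 input reads. In RPM these were 0.898 for Jmjd1c (95% counting interval 0.575 to 1.34), 2.57 for Oct4 (1.84 to 3.50) and 4.64 for Spt16 (3.97 to 5.39). The Jmjd1c interval did not overlap either of the others. The Jmjd1c level was below the lowest Oct4 level listed at 0 input reads (0.965 RPM), so its order against Oct4 was fixed by selection.

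Rif1, whose product acts in replication timing and telomere maintenance, had the Jmjd1c region nearest to a gene start. It was on chromosome 2 at 51927625 to 51927899, 594 bp upstream of the start (ENSMUSG00000036202). The best windows there held 25 Jmjd1c reads, 28 Oct4 reads and 170 Spt16 reads, again with 0 input reads in each. This came to 0.935 RPM of Jmjd1c (0.605 to 1.38), 1.80 RPM of Oct4 (1.20 to 2.60) and 4.64 RPM of Spt16 (3.97 to 5.39). Pou5f1 and Rif1 had Spt16 reads equal in number and Jmjd1c reads that differed by 1. Both Jmjd1c counts were near the lowest in the list, 23, and other listed regions had the same counts, so their likeness is not particular to these genes.

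The highest Jmjd1c read count in an all-list region was inside Abca4, a lipid transporter gene of the retina, on chromosome 3 at 121848310 to 121848729, 101159 bp downstream of the gene start. There were 46 Jmjd1c reads, 84 Oct4 reads and 217 Spt16 reads with 0 input reads, or 1.72 RPM (1.26 to 2.29), 5.40 RPM (4.31 to 6.69) and 5.92 RPM (5.16 to 6.76). It was also the widest of the Jmjd1c regions at 419 bp. Next came the region on chromosome 14 at 86795827 to 86796190, with 41 Jmjd1c, 35 Oct4 and 144 Spt16 reads and 0 input reads. It lay 12320 bp upstream of a gene listed as U1, the name of a spliceosomal small nuclear RNA. That gene entry had no RefSeq match.

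Other gene bodies and neighbors in all 3 lists had lower and similar Jmjd1c levels. Upstream of Slain2, which codes for a microtubule-growth factor, by 11835 bp (chromosome 5, 73293569 to 73293845), the windows held 35 Jmjd1c, 40 Oct4 and 108 Spt16 reads. Inside Iqgap1, the gene of a cytoskeletal scaffold (chromosome 7, 87891355 to 87891717), they held 33, 20 and 111. Inside Slc35f4, a solute carrier gene (chromosome 14, 50067480 to 50067726), Jmjd1c stood at 1.12 RPM (30 reads), Oct4 at 2.06 RPM and Spt16 at 3.33 RPM. These genes are not in the pluripotency list, and their starts lay 11835 bp to 78117 bp away.

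Inside Ncam2, which codes for a neural cell adhesion molecule (chromosome 16, 81481348 to 81481546), the region was 280506 bp from the gene start and held 24 Jmjd1c, 17 Oct4 and 98 Spt16 reads. On chromosome 3 at 88375872 to 88376072, 5090 bp downstream of the start of Gm10704, which RefSeq now names as a pseudogene (Rtraf-ps), the windows held 24, 16 and 85 reads. Input reads were 0 at each of these 5 regions. The remaining pair had no listed gene. The region on chromosome 9 (120599720 to 120600000) held 30 Jmjd1c, 25 Oct4 and 88 Spt16 reads with 0 input reads. The one on chromosome 8 (24672569 to 24672804) held 36 Jmjd1c, 22 Oct4 and 81 Spt16 reads, with 1 input read in the Jmjd1c and Oct4 windows and 2 in the Spt16 window. It was the one region of the 11 with any input read in its Jmjd1c window.

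**Figure D2:**
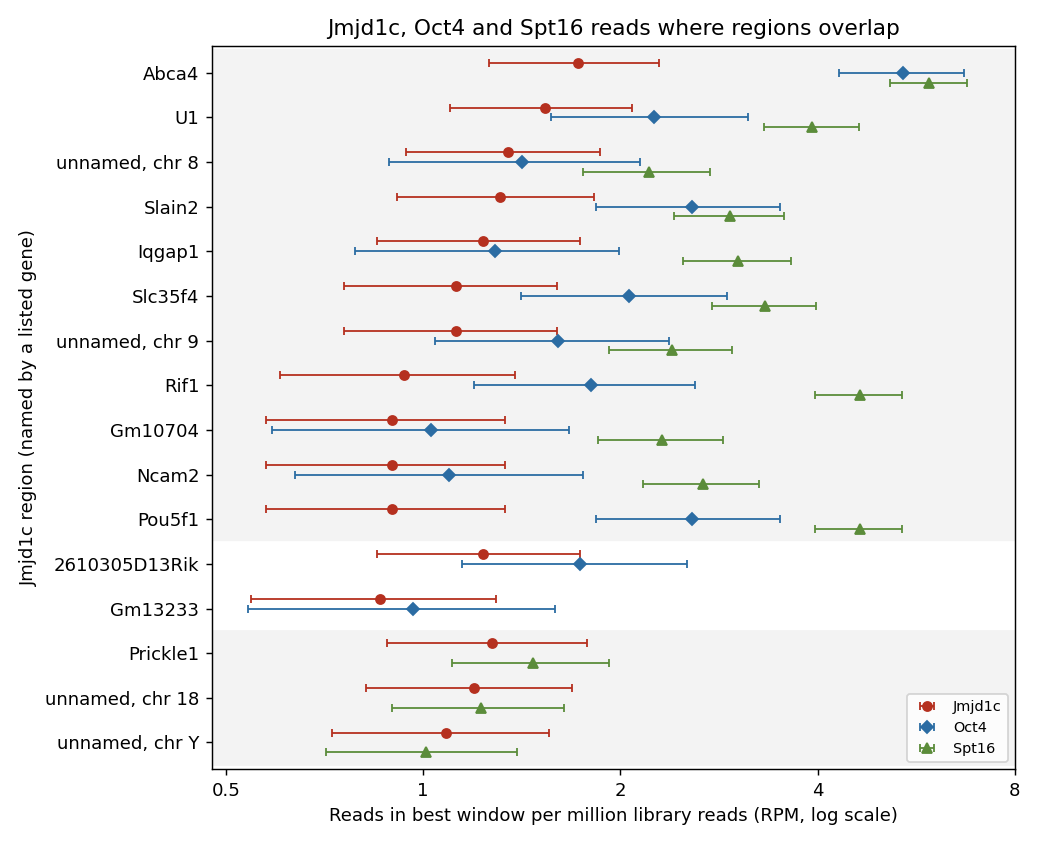
Jmjd1c (circles), Oct4 (diamonds) and Spt16 (triangles) reads in their own best windows at the 16 Jmjd1c regions that overlap another list, in RPM on a log scale with 95% exact Poisson intervals. Spt16 stood above Jmjd1c at 13 of 14 shared regions, the exception being the chromosome Y region, and Jmjd1c was below Oct4 at each of 13. At 6 of the 13, Jmjd1c was below the lowest Oct4 level listed at the same number of input reads. This fixed the order in advance for an Oct4 window with as many input reads.

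Across the 11 regions the Jmjd1c level spanned a narrower range than those of the other proteins. The highest count was 1.92 times the lowest for Jmjd1c, 5.25 times for Oct4 and 2.68 times for Spt16. Each highest count was at Abca4, and the wide Oct4 range rests on that region (84 reads, against 40 at Slain2 and Pou5f1, the next highest). Median levels were 1.12 RPM of Jmjd1c, 1.80 RPM of Oct4 and 3.03 RPM of Spt16. Jmjd1c counts of 24 were 1 above the lowest in the list, close to the authors' threshold, which limits how low a listed region can be.

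The ratio of Jmjd1c RPM to Oct4 RPM had a median of 0.698 over 13 shared regions and was below 1 at each. At 6 of the 13, Jmjd1c was below the lowest Oct4 level listed at the same number of input reads. A ratio below 1 was fixed in advance at those 6, given the input reads of the windows. The 2610305D13Rik region rests on that condition. Its Jmjd1c level (1.23 RPM, 2 input reads) exceeded the lowest Oct4 level at 0 input reads (0.965 RPM). Its Oct4 window held 3 input reads, where the lowest listed Oct4 level was 1.54 RPM. The ratio was lowest at Abca4 (0.318, exact binomial counting interval 0.217 to 0.461) and Pou5f1 (0.349, 0.201 to 0.593), and highest at Iqgap1 (0.959, 0.534 to 1.76) and the chromosome 8 region (0.951, 0.545 to 1.70). At 5 of the 13 (38.5%), namely Abca4, Pou5f1, Slain2, Rif1 and Slc35f4, the interval lay below 1. Of these, Pou5f1 and Rif1 were among the 6 where a ratio below 1 was fixed in advance. At the other 8 it held 1, so Jmjd1c and Oct4 levels could not be told apart there at this depth. Antibodies differ in efficiency, so a ratio below 1 does not say that less Jmjd1c than Oct4 was bound.

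The ratio of Jmjd1c RPM to Spt16 RPM had a median of 0.399 over 14 shared regions. It was lowest at Pou5f1 (0.194, 0.121 to 0.298) and Rif1 (0.202, 0.127 to 0.308). The next lowest value was 0.291 at Abca4, whose interval (0.207 to 0.401) overlapped both. In all 11 regions of the 3 lists the interval lay below 1, which is 78.6% of the 14. At the 3 regions outside the Oct4 list it held 1. These were the Prickle1 region (0.864, 0.545 to 1.35), the chromosome 18 region (0.975, 0.600 to 1.57) and the chromosome Y region (1.08, 0.638 to 1.80). Each shared region had to pass the threshold in both lists, which limits how far a ratio can lie from 1 where reads are few.

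**Figure D3:**
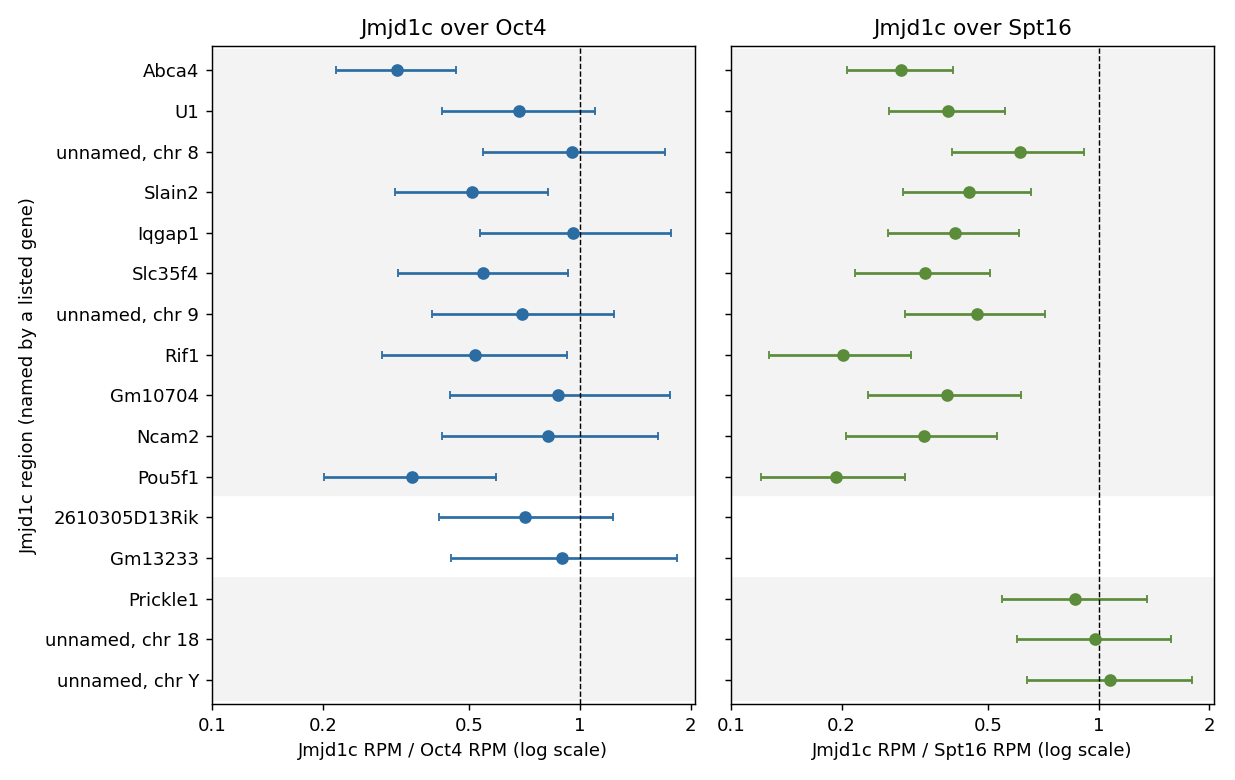
Ratio of Jmjd1c RPM to Oct4 RPM (left, 13 regions) and to Spt16 RPM (right, 14 regions), on log axes, with 95% exact binomial counting intervals and a dashed line at 1. Pou5f1 and Rif1 had the lowest ratios to Spt16 (0.194 and 0.202), and the 3 regions absent from the Oct4 list had ratios of 0.864 to 1.08.

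Regions that overlapped did so closely. All 14 Jmjd1c regions shared with Spt16 lay wholly within the Spt16 region, whose median width was 535.5 bp against 260 bp for Jmjd1c. Their middles were at most 50.5 bp apart. With Oct4, the overlap covered 75.9% to 100% of the Jmjd1c region and middles were at most 43.5 bp apart, with median widths of 246 bp for Jmjd1c and 256 bp for Oct4. Region width can grow with the number of reads, so the wider Spt16 regions do not by themselves show broader binding.

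**Figure D4:**
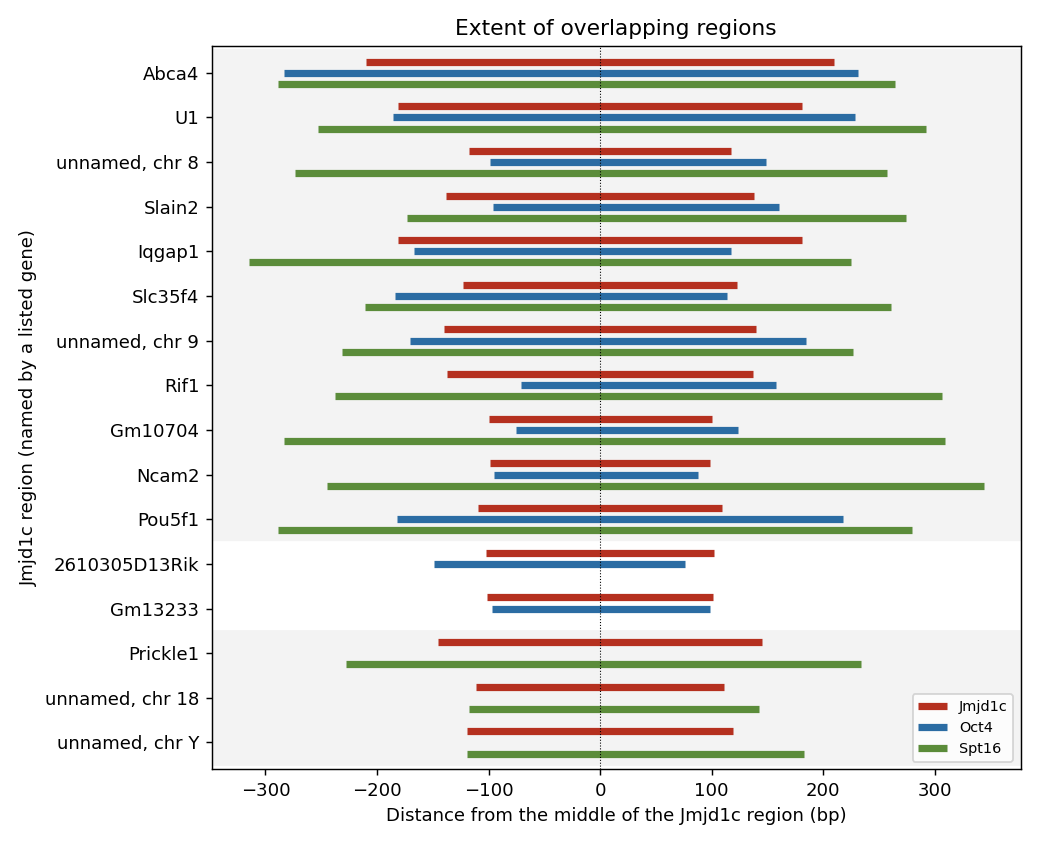
Extent of the Jmjd1c (red), Oct4 (blue) and Spt16 (green) regions at the 16 shared sites, in bp relative to the Jmjd1c region's middle. Every Spt16 bar spans the Jmjd1c bar, and the middles of Oct4 and Jmjd1c regions differ by no more than 43.5 bp.

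Jmjd1c and Spt16 without a listed Oct4 region were found at 3 sites. Inside Prickle1, a planar cell polarity gene (chromosome 15, 93351559 to 93351849), the windows held 34 Jmjd1c reads and 54 Spt16 reads with 0 input reads. The nearest Oct4 region was 31327 bp away. The sites on chromosome 18 (85867396 to 85867619) and chromosome Y (2790171 to 2790409) had no listed gene. They held 32 and 29 Jmjd1c reads, 45 and 37 Spt16 reads, and 1 input read in each window. Their Spt16 regions stood at places 434 and 845 of 1253 by rank, whereas in the all-list regions the Spt16 place ranged from 1 to 72.

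Jmjd1c and Oct4 without a listed Spt16 region were found at a pair of sites, both on chromosome 4. One, at 145607216 to 145607418, lay 10092 bp from Gm13233 and held 23 Jmjd1c reads and 15 Oct4 reads with 0 input reads, the lowest count in each of these lists. The other, at 146990332 to 146990537, lay inside 2610305D13Rik, which RefSeq now calls Zfp979. It held 33 Jmjd1c reads against 2 input reads, and 27 Oct4 reads against 3. The nearest Spt16 regions were 78226 bp and 90237 bp away.

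The 8 regions in the Jmjd1c list alone covered the same range of Jmjd1c reads as those in all 3 lists but had more input reads. Their Jmjd1c counts were 24 to 46 with a median of 35, against 24 to 46 with a median of 30 in the 11 all-list regions. Their windows held 14 of the 19 input reads of the whole list, and 5 of the 8 had an input read, against 1 input read in total over the 11. The authors' log2 ratios had a median of 2.78 at the 8, against 4.12 at the 11. Their Q scores ran from 14.8 to 19.6, against 15.2 to 52.8 at the 11. The lowest listed Jmjd1c level was 0.860 RPM at 0 input reads, 1.23 RPM at 2 and 1.61 RPM at 4. A region with input reads thus needed more Jmjd1c reads to be listed, so the like ranges of reads are limited by selection. Log2 ratios and Q scores come from the same counts and are not separate evidence. Of the 8 regions in the whole list with a Q score of at least 20, 7 were in all 3 lists and 1, at Prickle1, was shared with Spt16.

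The most reads among these 8 fell on chromosome X at 121306511 to 121306705, with no listed gene, where 46 Jmjd1c reads stood against 4 input reads (6.28-fold, 2.29 to 24.01). A region 4148 bp upstream of Zfp960, a zinc finger gene (chromosome 17, 17196823 to 17197034), held 43 reads against 4 (5.87-fold, 2.13 to 22.5). These were the 2 regions of the list with 4 input reads, and had the lowest ratios among the 9 regions with input reads.

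Another 3 regions had 2 input reads. They lay 2760 bp upstream of Gm10482 (chromosome 5, 10233943 to 10234194, 36 Jmjd1c reads), inside Nlgn1, which codes for a synaptic adhesion protein (chromosome 3, 25416895 to 25417098, 36 reads), and inside C130026I21Rik (chromosome 1, 85075188 to 85075452, 34 reads). The ratio to input was 9.28 to 9.82, with counting bounds from 2.38 to 84.2. The Gm10482 and C130026I21Rik regions had the most uneven strands, with 23 plus and 13 minus reads and 21 plus and 13 minus reads. The Nlgn1 region lay 1667 bp from a Spt16 region and 10373 bp from an Oct4 region. In each case this was the closest that any region not shared with that list came to one. The Nlgn1 start was 615659 bp away, and the nearest listed start, of a 5S rRNA gene, 27945 bp.

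The last 3 had no input read. They lay 4833 bp upstream of Gm16307 and inside Gm16532, which RefSeq now calls Smim17 (chromosome 7, 6362820 to 6363032, 25 Jmjd1c reads), 5848 bp upstream of Samd12 (chromosome 15, 53739814 to 53740064, 25 reads) and 5279 bp upstream of 2310047B19Rik, now Swsap1 (chromosome 9, 21754813 to 21755022, 24 reads). With 0.898 to 0.935 RPM they were as high as Pou5f1 and Rif1, but the nearest Oct4 regions were 1356196 bp or more away and the nearest Spt16 regions 867602 bp or more.

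The lists differed in the level at which a region entered them. With no input read, the lowest listed level was 0.860 RPM for Jmjd1c, 0.965 RPM for Oct4 and 0.709 RPM for Spt16. At the same number of input reads, the Jmjd1c level was below the lowest listed Oct4 level at 16 of the 24 regions, among them all 8 in the Jmjd1c list alone. At 4 input reads this rests on 1 listed Oct4 region. Of those 16, 6 were in the Oct4 list, where more Oct4 than Jmjd1c RPM followed by construction, given the input reads of the windows. Of the 8 regions at or above that level, 7 were in the Oct4 list, the exception being Prickle1. The Jmjd1c level was at or above the lowest listed Spt16 level at 24 of 24. Levels of different antibodies are not on 1 scale, and Oct4 and Spt16 reads in windows outside their own lists were not analysed here, so the part of these entry levels in the overlaps was not tested. Oct4 regions present in uninduced cells had also been removed by the authors, 10 in all.

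The Jmjd1c regions lay mostly away from gene starts. With the nearest listed start within 5 kb there were 5 of 24 (20.8%, 7.13 to 42.2), against 21.1% of Oct4 regions and 30.5% of Spt16 regions, a difference within the counting interval. The 5 were at Rif1, Pou5f1, Gm10482, Zfp960 and Gm16307, all upstream of the start. A listed gene was overlapped by 9 regions (37.5%), against 42.6% of Oct4 and 49.6% of Spt16 regions, and 5 had no listed gene. The regions were spread over 15 chromosomes, with at most 3 on any of them.

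Genes of 3 lists were counted around the regions. Of 45 pluripotency genes, 2 (Pou5f1 and Rif1) had a Jmjd1c region within 50 kb, where 0.132% of 21900 protein-coding genes did. Oct4 regions were near 13 of the same 45 genes and Spt16 regions near 28, where 1.42% and 7.14% of protein-coding genes were. Nanog, Klf2, Lefty1, Dppa3 and Rest, among those with Oct4 and Spt16 regions within 10 kb, had none for Jmjd1c within 50 kb. Among 25 genes for H3 lysine 9 methylation (its writers, readers and erasers), 0 had a Jmjd1c region and 0 an Oct4 region at that distance. Spt16 regions were near 5 of them, namely Ehmt1, Jmjd1c, Kdm3b, Suv39h1 and Trim28. Of 13 FACT and histone chaperone genes, 0 had a Jmjd1c or Oct4 region and 1, Daxx, had a Spt16 region. These counts were not tested.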

How the data were processed

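The series has 6 ChIP-seq libraries, grouped by antibody and time from their titles, 1 a group. Of these, 4 were used. The submitters' processing notes name CASAVA 1.4, Bowtie and mm9. The program that called regions was not given in the sources used here. Per the file headers, each 10 h ChIP was set against the 10 h input, and the authors kept regions from a Q value score of 13 and a log2 ratio of 1 upwards. The deposited counts are whole reads per strand in the best window, summed here. The authors' log2 ratio, with 1 read added, and their p score were recomputed to within 1.1e-05. RPM used the header totals. The deposited gene tables hold distances from region middle to gene start. Coordinates are as deposited. Genome sequence was not used here.

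With 0 input reads, folds were bounds against 3 input reads. Otherwise ratios had exact binomial intervals at 95%. Reads carry no molecular identifiers, so counting error is all that intervals and floors reflect. Of 65 gene identifiers, 52 matched a RefSeq name (GRCm38.p6). Each region was named by its nearest listed gene, by a gene that holds it, or by position. Members and gene lists were chosen with earlier results of these data known. Overlap and interval code was tested on simulated data. Alternatives covered overlap rules, thresholds, floors and distances. Tools were Python 3.11.15 with scipy 1.17.1, numpy 2.4.6, matplotlib 3.10.9 and pandas 2.3.3.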

Additional observations from a re-analysis of the deposited data

How the results depend on the processing

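Of 29 alternatives, 22 kept their value within the set limits. At a Jmjd1c Q score of at least 20, which leaves 8 regions by construction, 7 overlapped an Oct4 region, 8 a Spt16 region and 7 both, against 13, 14 and 11 of the 24. Among the 15 regions with no input read, 11 overlapped an Oct4 region and 11 a Spt16 region, which counted as within limits. The median excess over input, 6.09-fold with empty input at its bound, became 13.1-fold with 1 read added to the input. It was 3.77-fold with a floor of 5 reads, which also counted as within limits, so those limits were wide. The number of regions near a gene start was 1 within 1 kb, 9 within 10 kb and 14 within 50 kb, against 5 within 5 kb, by construction. Stricter overlap, the higher-scoring part of the other lists, window length and input subtraction left counts and median ratios within limits. No paired analysis was possible because each group held 1 library, and for the same reason no replicate could be left out. Depth limits single regions, since windows of 23 to 46 Jmjd1c reads give wide intervals.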

Other observations

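Zinc finger genes with Zfp symbols (current RefSeq symbols where matched) were listed beside 3 of the 19 Jmjd1c regions with a gene (15.8%, 95% Clopper-Pearson interval 3.38 to 39.6). They were Zfp960, Zfp28 with Zfp78, and Zfp979 with Zfp985, at any listed distance, and none was beside a region of all 3 lists. The share was 3.08% of Oct4 regions (1.25 to 6.25) and 3.21% of Spt16 regions (2.26 to 4.42). This gene family was picked after the values were seen, rests on 3 regions and was not tested.

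The nearest gene had a provisional deposited symbol (Gm, Rik and similar) at 7 of the 19 Jmjd1c regions with a gene (36.8%, 16.3 to 61.6), against 27.8% of Oct4 regions and 21.9% of Spt16 regions. By group, these were 4 of 7 regions in the Jmjd1c list alone, 2 of 2 shared with Oct4 and not Spt16, and 1 of 9 in all 3 lists. Current symbols were not used for this count, and 2310047B19Rik (now Swsap1) and Gm10704 (now Rtraf-ps) are among the 7. Chromosomes X and Y held 2 of the 24 Jmjd1c regions (8.33%), against 1.89% of Oct4 and 2.87% of Spt16 regions. This rests on 2 regions, with 4 input reads on X and 1 on Y, and was not tested.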
